A study of Mus musculus with 3 samples.

Results

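The genes described here carry the timing signal of the circadian clock from its core loop to other genes. They are the PAR bZIP activators Dbp, Tef and Hlf, their repressor relative Nfil3, the nuclear receptors Nr1d1, Nr1d2 and Rora, the cell cycle kinase Wee1 and the repressor Bhlhe40. The 9 genes were chosen by function and with their levels on these arrays already known, so those levels are a description and no difference in them is tested. Each is measured by 1 of the 25206 probe sets on the array, and all 9 were found through the Entrez number in the probe set name.

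Male C57BL/6N mice, 8 to 12 weeks of age, gave left ventricle RNA at day 14. Control mice carried an osmotic pump with ammonium bicarbonate vehicle and were injected with saline. Iso mice had the same vehicle pump and isoproterenol, a beta-adrenergic agonist, at 50 mg/kg daily by the intraperitoneal route for 11 days. Iso+Insl6 mice had that isoproterenol and a pump delivering INSL6, a peptide related to insulin and relaxin, under the skin at 50 to 70 nmol/kg daily. Each group is 1 array of RNA pooled from 3 samples, so the spread between animals is unknown and nothing could be tested. The sources used here do not give the hour of harvest, and with 1 pool for each group it cannot be told apart from the treatment.

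In the clock, CLOCK and ARNTL bind E-boxes and switch on the Period, Cryptochrome, REV-ERB and PAR bZIP genes. The PERIOD and CRYPTOCHROME proteins then hold CLOCK and ARNTL back. REV-ERB proteins, made by Nr1d1 and Nr1d2, repress Arntl and Nfil3 through ROR elements, where ROR proteins activate. DBP, TEF and HLF activate genes through D-boxes, and NFIL3 represses through the same sites. In heart muscle this network gives daily rhythm to metabolic and ion channel genes.

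Promoter sequence was available for 7 of the 9 genes (all but Wee1 and Bhlhe40), in 8 promoters, from RefSeq (GRCm38.p6). The 250 bases before each start were searched on both strands for the E-box CACGTG, the related CACGTT and the D-box TTANGTAA. TNGGTCA, a looser form of the ROR element core, was searched too, and N stands for any base. Capitals mark the matches, none of which overlapped another. Both starts of Tef held an E-box, which 6.02% of all 32851 promoters in the table held in the same window. The sequence before the upstream Tef start (chr15:81802423-81802672, plus strand) and that before the downstream start (chr15:81811164-81811413, plus strand) are shown because they are the only E-boxes found. The array has 1 probe set for Tef, so transcripts from these starts were not measured separately.
Tef, upstream start: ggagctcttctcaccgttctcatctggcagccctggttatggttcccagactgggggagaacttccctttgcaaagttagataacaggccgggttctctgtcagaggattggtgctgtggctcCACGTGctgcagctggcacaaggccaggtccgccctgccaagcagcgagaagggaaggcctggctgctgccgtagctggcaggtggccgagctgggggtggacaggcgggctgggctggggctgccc
Tef, downstream start: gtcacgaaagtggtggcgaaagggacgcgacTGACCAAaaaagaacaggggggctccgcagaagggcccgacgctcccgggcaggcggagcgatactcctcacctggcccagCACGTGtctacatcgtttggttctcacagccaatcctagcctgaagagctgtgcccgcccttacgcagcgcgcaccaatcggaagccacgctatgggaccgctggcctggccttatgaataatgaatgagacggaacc

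The downstream Tef window also matched TNGGTCA, as did Nfil3, and 9.19% of all promoters held a match to this loose pattern. Read on the other strand, the Tef match is TTGGTCA and the Nfil3 match TAGGTCA. The Nfil3 window (chr13:52981040-52981289, minus strand) is shown because Nfil3 is the single gene of the 9 that was lower on the Iso array and is a known REV-ERB target. Nr1d1 (chr11:98775378-98775627, minus strand) held CACGTT, read on its other strand, 28 to 23 bases before the start; 3.85% of all promoters held it.
Nfil3: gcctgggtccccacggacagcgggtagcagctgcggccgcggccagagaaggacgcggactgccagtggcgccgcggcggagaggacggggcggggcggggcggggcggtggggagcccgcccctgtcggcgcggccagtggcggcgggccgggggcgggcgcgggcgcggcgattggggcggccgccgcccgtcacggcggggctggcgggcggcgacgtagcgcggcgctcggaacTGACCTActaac
Nr1d1: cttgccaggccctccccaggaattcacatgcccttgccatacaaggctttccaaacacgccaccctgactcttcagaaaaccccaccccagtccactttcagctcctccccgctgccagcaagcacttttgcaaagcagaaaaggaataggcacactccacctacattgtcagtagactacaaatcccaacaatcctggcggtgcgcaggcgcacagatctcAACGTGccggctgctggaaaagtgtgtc

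The Dbp window (chr7:45704997-45705246, plus strand) had no match and is shown because Dbp differed most between arrays. No window of Dbp, Hlf, Nr1d2 or Rora held any of these letters, and no window of the 8 held the D-box, which was in 2.06% of all promoters. A match describes the letters and is not a measured binding site.
Dbp: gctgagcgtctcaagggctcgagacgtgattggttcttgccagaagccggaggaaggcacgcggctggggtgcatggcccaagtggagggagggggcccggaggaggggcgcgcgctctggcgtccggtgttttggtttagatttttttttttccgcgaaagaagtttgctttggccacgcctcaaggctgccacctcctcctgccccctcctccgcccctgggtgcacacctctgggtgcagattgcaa

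Each array gave log2 values with a median of 4.16, taken as the background level. A difference of 1 on this scale is 2-fold. All 9 genes lay above 4.16 on every array. The labelled tissue was checked with heart muscle markers, and 8 of 8 (Myh6, Tnnt2, Tnni3, Actc1, Ryr2, Pln, Myl2 and Myl3) were above background, with a mean level of 11.77, 11.79 and 11.76 on Control, Iso and Iso+Insl6. In whole ventricle, fewer cells of a type and less RNA per cell cannot be told apart.

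Among the PAR bZIP activators, Dbp showed the widest spread. Its level was 7.42 on Control, 9.46 on Iso and 9.38 on Iso+Insl6. Both isoproterenol arrays were therefore high and the Control array low, by 4.11-fold and 3.89-fold, while the isoproterenol arrays lay 0.08 apart. Hlf, first known as the partner in a leukemia fusion and active with DBP and TEF in liver, kidney and brain, was at 5.94, 6.68 and 6.73. It was 1.67-fold higher on Iso and 1.73-fold higher on Iso+Insl6 than on Control. Tef, the thyrotroph embryonic factor, was at 5.49, 6.05 and 6.16. It lay just short of 1.5-fold on Iso (0.56, against a threshold of 0.585) and past it on Iso+Insl6 (0.67). The order of the arrays was the same for Hlf and Tef, with Control lowest and Iso+Insl6 highest, whereas Dbp was highest on Iso by a small margin.

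Nfil3, which encodes the repressor at D-boxes, went the other way. It stood at 6.16 on Control and at 5.58 on both other arrays. That difference of -0.58 is 1.49-fold lower and just short of the threshold. All 3 activators were thus higher and their repressor lower on the isoproterenol arrays than on Control, as the plot of levels by array shows.

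**Figure D1:**
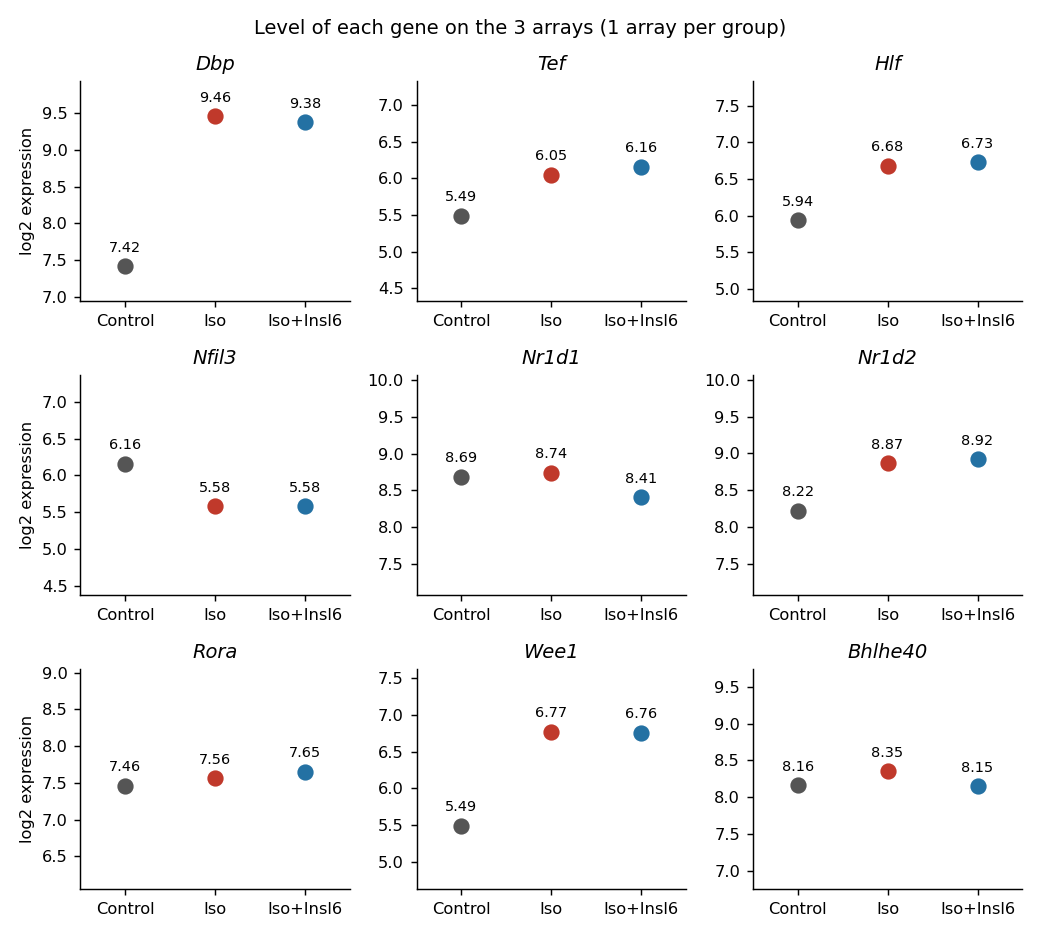
Log2 expression (vertical axes, each spanning the same range) of each of the 9 genes on the arrays of Control, Iso and Iso+Insl6, 1 point each. Dbp and Wee1 are low on Control alone (7.42 and 5.49), Nfil3 is high on Control alone (6.16), and Rora and Bhlhe40 stay within 0.20.

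The REV-ERB pair did not show a shared pattern. Nr1d2, which encodes REV-ERB beta, was at 8.22, 8.87 and 8.92 on Control, Iso and Iso+Insl6. It was 1.57-fold higher on Iso and 1.62-fold higher on Iso+Insl6 than on Control. Nr1d1, which encodes REV-ERB alpha, was at 8.69, 8.74 and 8.41. Control and Iso lay within 0.05 of each other for Nr1d1, and Iso+Insl6 was the low array, by -0.33 against Iso and -0.28 against Control. The end of Nr1d1 overlaps the thyroid receptor gene Thra on the opposite strand. Thra differed little, at 8.17, 8.14 and 8.15, and the sources used here do not state which strand the probes read. Rora, the activator at the sites that REV-ERB proteins occupy, was at 7.46, 7.56 and 7.65, a spread of 0.19.

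Wee1, the kinase that holds back entry into mitosis by phosphorylating CDK1 and a known target of CLOCK and ARNTL, had the second widest spread of the 9. It was at 5.49 on Control, 6.77 on Iso and 6.76 on Iso+Insl6. The isoproterenol arrays were nearly equal and stood 2.43-fold and 2.41-fold above Control. Bhlhe40 (DEC1), a repressor that competes for E-boxes and is also induced by hypoxia, was at 8.16, 8.35 and 8.15. Its highest array was Iso, by 0.19, and Control and Iso+Insl6 lay 0.01 apart.

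The first comparison of the design sets Iso against Control and asks what isoproterenol does to the ventricle. Dbp (2.04), Wee1 (1.28), Hlf (0.74) and Nr1d2 (0.65) were at least 1.5-fold higher, which is 4 of 9, and 0 of 9 were at least 1.5-fold lower. Among 12415 genes at or above background on either array, 0.846% were as much higher and 1.03% as much lower. Because the 9 were picked with these values in view, nothing is read from the contrast of those shares. The median difference of the 9 was 0.56, beside 0.00 for all genes. By direction alone 8 of the 9 were higher and 1 lower. Of all genes, 52.9% had identical values on the Control and Iso arrays, 19.7% were higher and 27.3% lower, and 95% differed by 0.37 or less. Why so many values are identical was not tested. The shares, the 0.37 and the ranks below describe the deposited values and do not measure noise between arrays. By size of difference, Dbp was the 5th largest of all genes and Wee1 the 22nd, whereas 3220 genes differed as much as Rora and 4503 as much as Nr1d1.

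**Figure D2:**
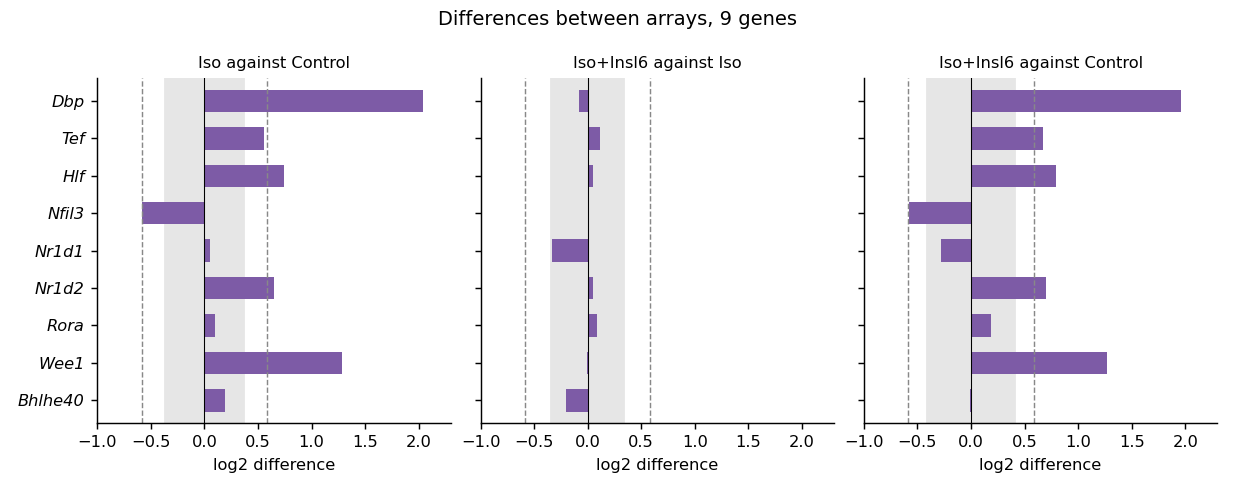
Log2 differences of the 9 genes in the 3 comparisons (bars; dashed lines at 1.5-fold; grey band, the range that holds 95% of all genes above background). Bars for Dbp, Wee1, Hlf and Nr1d2 pass the dashed line in both comparisons with Control, and no bar does so between Iso+Insl6 and Iso.

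The second comparison sets Iso+Insl6 against Iso and asks what infused INSL6 adds under isoproterenol. Here 0 of 9 genes were 1.5-fold higher or lower, beside 1.49% and 0.506% of 12457 genes. The median of the 9 was 0.00. The widest gaps were those of Nr1d1 (-0.33) and Bhlhe40 (-0.20), both lower on Iso+Insl6, and 659 genes differed as much as Nr1d1. Tef (0.11) and Rora (0.09) were a little higher and Dbp (-0.08) a little lower. Hlf and Nr1d2 (both 0.05), Wee1 (-0.01) and Nfil3 (0.00) lay within 0.05. Nfil3 turned to between 0.00 and -0.04 under other scalings of the arrays, which gave no other of the 27 differences another sign.

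**Figure D3:**
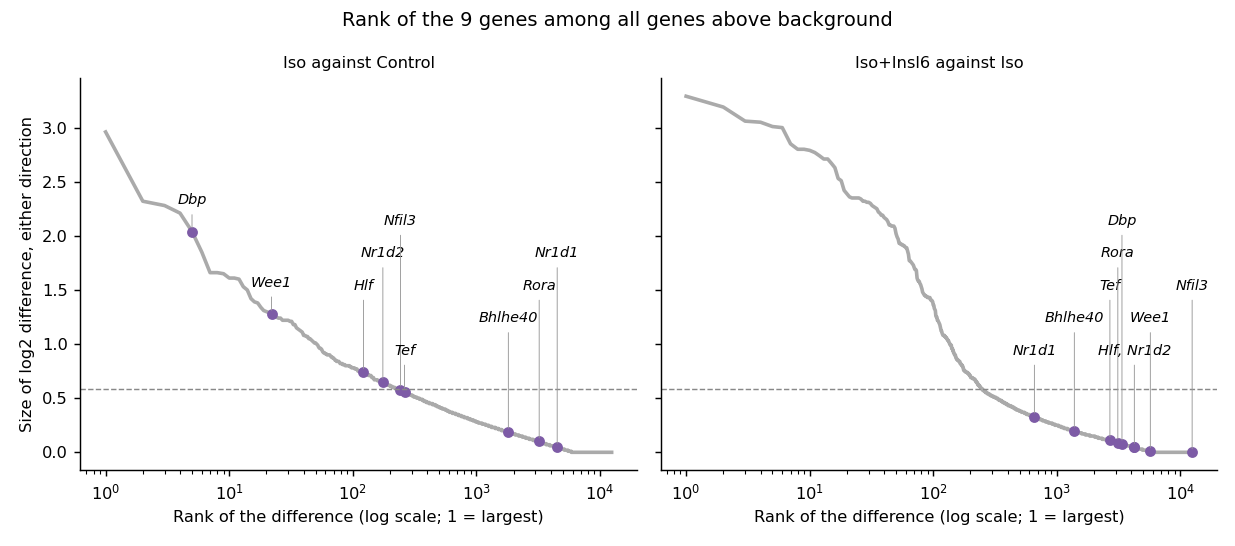
Size of the log2 difference, in either direction, of every gene above background in order of size (grey; horizontal axis, rank on a log scale), with the 9 genes marked and a dashed line at 1.5-fold. Dbp and Wee1 lie near the left end for Iso against Control, while all 9 lie below the line and far to the right for Iso+Insl6 against Iso.

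Liver genes stood apart in the Iso+Insl6 pool, and liver expresses these clock genes too. Of 11 liver markers measured, all 11 were above background on every array, with mean levels of 6.10, 5.89 and 7.94 on Control, Iso and Iso+Insl6. Between Iso and Iso+Insl6, 10 of the 11 were at least 1.5-fold higher, from 1.40 for Fga to 3.19 for Cyp2e1, and Hnf4a differed by 0.47. Over all genes 1.49% were as much higher. The median of the 11 was 2.15. Between Control and Iso, 3 of the 11 were at least 1.5-fold lower on Iso, the fibrinogen genes Fga (-0.66), Fgb (-0.71) and Fgg (-0.90). As much higher were 0, and the median was -0.02. The shares over all genes were 1.03% lower and 0.846% higher. The part of liver RNA in the values of the 9 genes was not tested. Heart muscle markers differed by -0.14 to 0.03 between Iso and Iso+Insl6.

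Against Control, the Iso+Insl6 array had 5 of 9 genes at least 1.5-fold higher, the same 4 and Tef, and 0 of 9 lower. The shares over 12420 genes were 1.96% and 0.789%. This comparison and that of Iso use the same Control array, so the values are given side by side and are not independent of each other. Dbp differed by 2.04 on Iso and 1.96 on Iso+Insl6. Wee1 differed by 1.28 and 1.27. Nfil3 was lower by the same 0.58 on both. As a share of the Iso difference, the Iso+Insl6 difference was 0.96 for Dbp, 0.99 for Wee1, 1.07 for Hlf, 1.08 for Nr1d2 and 1.20 for Tef. With Nfil3, none of these 6 genes therefore stood nearer to Control on the Iso+Insl6 array than on Iso by more than 0.08.

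The markers of other cell types past 1.5-fold between Control and Iso were Pi16, Kdr and Hbb-b1. Over all genes 0.846% were higher and 1.03% lower, and with lists this short nothing is read from these counts. Fibroblast markers, 8 of 8 above background, had mean levels of 7.29, 7.50 and 7.57, and 1 of 8 (Pi16, 0.61) was at least 1.5-fold higher on Iso. Endothelial markers (7 of 7 above background) had means of 8.29, 8.23 and 8.18, with Kdr alone past 1.5-fold (-0.61). Macrophage markers (7 of 7) had means of 5.81, 5.82 and 5.82, and smooth muscle and pericyte markers (6 of 6) 7.41, 7.47 and 7.58. Lymphocyte markers (0 of 8) and adipocyte markers (1 of 6, Fabp4) were largely below background. Of 5 erythroid genes listed 2 were measured, and Hbb-b1 was at 4.51, 5.10 and 4.72, at least 1.5-fold higher on Iso (0.59). The part of these cell types in the differences of the clock output genes was not tested.

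The core loop upstream of these genes split by role. All 3 activators were at least 1.5-fold lower on Iso, with Arntl at 7.07, 4.11 and 4.08. Of 7 repressors, 5 were at least 1.5-fold higher, from Per1 (1.02) to Ciart (1.60), while Cry1 (0.04) and Cry2 (0.33) were not. Over all genes 1.03% were as much lower and 0.846% as much higher. These lists were chosen with earlier results of these data known, so nothing is read from that contrast. Bhlhe41, the close relative of Bhlhe40, was at 6.06 on Control and 7.30 on Iso, 1.24 higher where Bhlhe40 was 0.19 higher, and 0.94 above Control on Iso+Insl6. Other paralogs differed little. Rorb was near background at 4.22 or less, and the WEE1 relatives Wee2 and Pkmyt1 lay below background with identical values on all 3 arrays.

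Known targets of the PAR bZIP proteins were higher only in part. Of 8 measured, 7 were above background on Control or Iso, and Nr1i3 was below it on every array. The median over all 8 was 0.38. At least 1.5-fold higher on Iso were 3, and 0 were as much lower, beside 0.846% and 1.03% of all genes. Those 3 are the Period genes Per1, Per2 (1.24) and Per3 (1.53), which also answer to E-boxes. They are already counted among the core repressors above. Por, the electron donor of cytochromes P450, was at 6.09, 6.39 and 6.59. Pdxk, the pyridoxal kinase, was at 5.29, 5.29 and 5.34, and Alas1, the first enzyme of heme synthesis, at 9.82, 9.93 and 9.91, so both differed by 0.11 or less.

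Targets of REV-ERB and ROR proteins other than Nfil3 numbered 12, with 11 above background on Control or Iso and a median over the 12 of -0.04. By their listed values 4 were at least 1.5-fold lower on Iso and 0 higher, beside 1.03% and 0.846% of all genes. The 4 were Arntl, Npas2 (5.65, 4.43 and 4.86), Clock (9.16, 8.54 and 8.41) and the brain fatty acid binding protein Fabp7. Arntl, Npas2 and Clock are the 3 core activators already counted above. Fabp7 was at 4.61 on Control and below background at 3.00 and 3.23 on the others, so it was at least 1.37-fold lower when set against background, short of 1.5-fold. Other targets did not share that pattern: the lipase Lpl differed by -0.16, the coactivator Ppargc1a by 0.09 and the autophagy kinase Ulk1 by -0.04. Of 10 genes for heme supply and for the corepressors that REV-ERB proteins recruit, 0 passed 1.5-fold on Iso. Over all genes 0.846% were as much higher and 1.03% as much lower, so that count is near the share of all genes. Ncor1 was at 8.40, 8.38 and 8.38 and Hdac3 at 7.78 on all arrays.

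**Figure D4:**
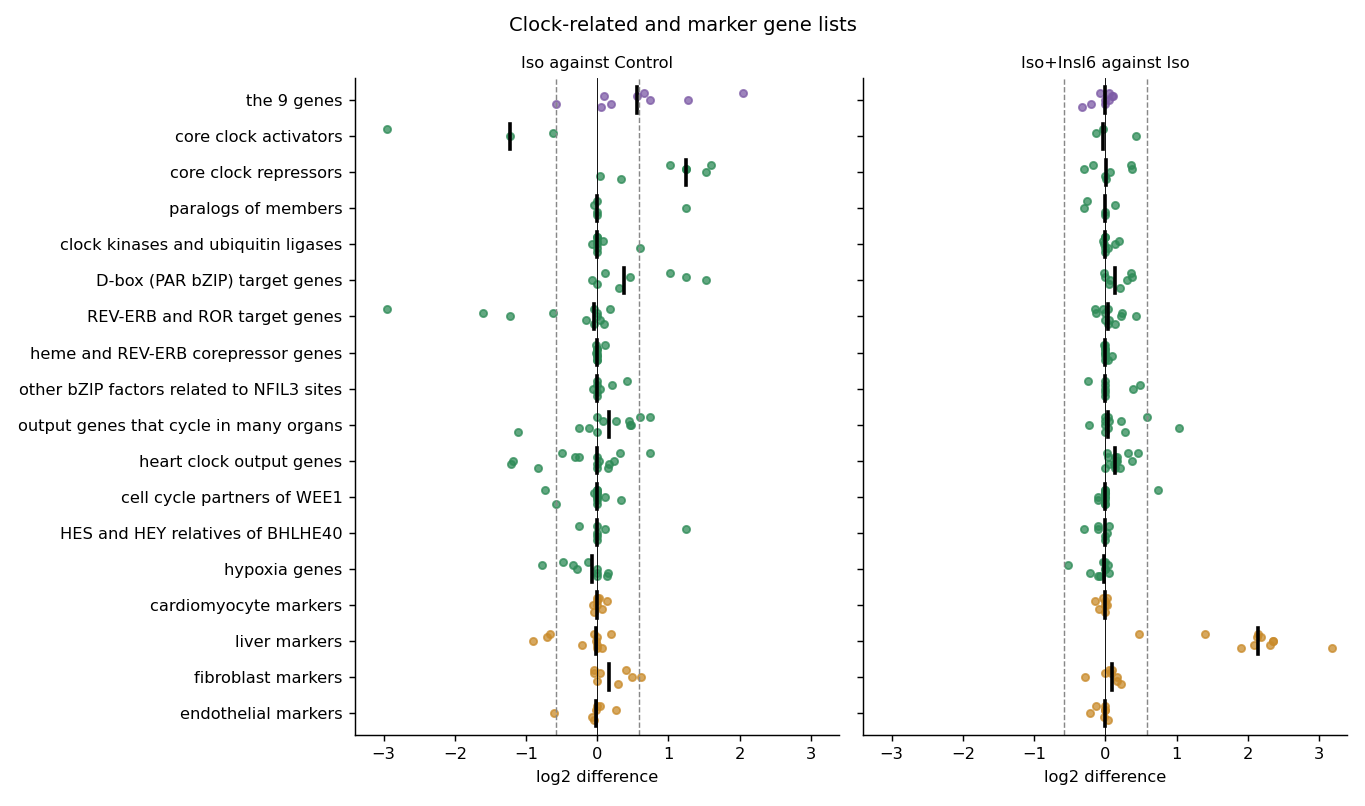
Log2 differences of single genes (points) in lists of clock-related genes (green), cell type markers (orange) and the 9 genes (purple), with list medians as black bars and 1.5-fold as dashed lines; the 9 genes are left out of the other lists. Core activators lie left and repressors right of zero for Iso against Control, and 10 of 11 liver markers lie at 1.40 or more for Iso+Insl6 against Iso, right of every other point, the next being Fkbp5 at 1.03.

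Genes that cycle in many organs gave a mixed picture. Of 12 such genes, 11 were above background on Control or Iso, and the median over all 12 was 0.17. On Iso, 2 were at least 1.5-fold higher and 1 lower, beside 0.846% and 1.03% of all genes. The deubiquitinase Usp2 was at 8.04, 8.64 and 8.68, close to the pattern of Nr1d2, and the monooxygenase Fmo2 was at 7.03, 7.77 and 8.36. The cell cycle inhibitor Cdkn1a was lower on both isoproterenol arrays, at 7.55, 6.43 and 6.70. Tsc22d3, a glucocorticoid-induced leucine zipper protein, was at 6.36, 6.81 and 7.03 and the tetraspanin Tspan4 at 5.39, 5.85 and 5.85. Between Iso and Iso+Insl6, Fmo2 (0.59) and the chaperone Fkbp5 (1.03) were at least 1.5-fold higher, beside 1.49% of all genes.

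Of 15 genes described as clock outputs in heart, 1 was at least 1.5-fold higher and 3 lower on Iso, with a median of 0.00. Over all genes the shares were 0.846% higher and 1.03% lower. Tcap, the titin cap protein, was at 9.58, 10.32 and 10.35. The lower 3 were metabolic: the pyruvate dehydrogenase kinase Pdk4 (9.57, 8.36 and 8.49), Angptl4, which blocks lipoprotein lipase (at least 1.79-fold lower, as its Iso level of 3.82 is below background) and the mitochondrial carrier Ucp3 (-0.83). The potassium channel subunit gene Kcnip2 differed less, at 8.81, 8.55 and 8.69. Klf15, a transcription factor of cardiac metabolism, stood in steps of 0.32 at 5.93, 6.25 and 6.57.

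The cell cycle genes around WEE1 were mostly near or below background, with 5 of 13 above it on Control or Iso. Its substrate Cdk1 was at 3.26, 3.37 and 3.26, below background on every array. Ccnb1, the cyclin that pairs with CDK1, was at 4.50, 3.77 and 4.51, and as 3.77 is below background it was at least 1.27-fold lower on Iso. Ccna2 was at 4.74, 4.16 and 4.16. Of the 5 above background, 0 were at least 1.5-fold higher on Iso than on Control, beside 0.846% of all genes. With so few genes nothing is read from that count.

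In the remaining lists, genes past 1.5-fold on Iso were counted among those above background on Control or Iso. Over all such genes 0.846% were higher and 1.03% lower. With lists this short nothing is read from the counts. Of 7 genes of the HES and HEY group 6 were above background. Among these only Bhlhe41 passed 1.5-fold, and Hes1 was at 6.66, 6.66 and 6.55. Among 10 genes of the hypoxia response, which also induces Bhlhe40, 9 were above background. Of these, 0 were 1.5-fold higher and 1 lower on Iso, the oxygen sensor Egln3 at 9.15, 8.38 and 7.85. Vegfa was at 9.77, 9.29 and 9.29. Of 8 other bZIP genes 5 were above background on Control or Iso, and 0 passed 1.5-fold on Iso. Cebpb, an activator of acute phase and metabolic genes, was at 4.71, 4.92 and 5.40, which is 0.69 higher on Iso+Insl6 than on Control. Of 9 clock kinase and ubiquitin pathway genes 8 were above background. Among these only Usp2 passed 1.5-fold, and Csnk1d was at 7.16 on all arrays.

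Between Iso and Iso+Insl6 the same lists showed few differences of 1.5-fold, and over all genes 1.49% were as much higher and 0.506% as much lower. None of the 3 core activators, 7 repressors, 8 PAR bZIP targets or 12 REV-ERB and ROR targets reached it. Per1 (0.36) and Per2 (0.37) were the repressors highest on Iso+Insl6, whereas Bhlhe41 (-0.30) and Ciart (-0.17) were lower there, as Nr1d1 and Bhlhe40 were. Of the 15 heart outputs 14 were higher on Iso+Insl6 and 0 lower, with a median of 0.14 and the potassium channel gene Kcna5 furthest at 0.46. Of these, Tcap (0.03) and Kcnk3 (0.04) differed by no more than the 0.04 by which centring on genes above background moves every gene. Of all genes, 27.9% were higher and 18.0% lower.

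Genes outside the 9 whose 3 levels, each taken relative to their own mean, lay nearest to those of each gene that varied at least 1.5-fold were then found. The measure is the Euclidean distance in log2 units over 3 arrays, too few to single out a pattern. Nearest to Dbp were Per3 (distance 0.37), Ciart (0.40) and Per2 (0.57), none of them close. Nearest to Wee1 were Prg4 (0.16) and Mt2 (0.17), besides Zfp738, whose Control level of 3.87 is below background, so that its listed distance of 0.05 is not a measured one. Hlf lay by Tcap (0.02), Serpine2 (0.04) and Fhl1 (0.06). Nr1d2 lay by Abca8a (0.02), Ackr4 (0.03) and Col14a1 (0.04), and Tef by Ang (0.03), Col14a1 (0.03) and Sorcs2 (0.05). Of the 9 genes 5 varied this much over the 3 arrays, beside 3.92% of 12513 genes above background on any array.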

How the data were processed

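There were 3 expression arrays, 1 for each of Control, Iso and Iso+Insl6. The deposited values are log2 levels, 1 for each probe set. The submitters' processing notes name RMA and affy 1.36.1, and the RMA settings, array type and genome build are not given in the sources used here. Values have 2 decimals and run from 0.44 to 12.45. RefSeq's mouse gene table (GRCm38.p6) named 23740 of 25206 probe sets by Entrez number. All 3 columns were matched by label. Differences between arrays were counted at 1.5-fold (log2 0.585) among genes whose higher array reached 4.16 (the median over all values), and a fold whose lower level is under 4.16 is a bound against it. The number of arrays limits precision. The members and the 22 other lists (188 entries, 183 measured) were chosen with earlier results of these data known. Genes named are the 9, members of the lists past 1.5-fold or needed for their level, and the 3 nearest patterns from each of 5 genes, with predicted, olfactory, vomeronasal, antigen receptor and small RNA genes left out; Thra was looked up after the values were seen. A few list genes are counted but not reported here by name. Counting was tested on simulated data. Alternatives were a 2-fold threshold, no level filter, a filter of 6, centring on genes above background, and cyclic loess and quantile normalization (limma 3.58.1).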

Additional observations from a re-analysis of the deposited data

How the results depend on the processing

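The count of clock output genes past 1.5-fold was 4 for Iso against Control, 0 for Iso+Insl6 against Iso and 5 for Iso+Insl6 against Control. It was the same with a filter of 6, with no level filter and after cyclic loess. Cyclic loess moved none of the 27 differences, so it could not change the count and does not test it. Dropping the filter could not change the count either, because every clock output gene lay above 4.16 on every array. Centring and repeated quantile normalization gave 4, 0 and 6, the added gene being Nfil3 as lower. At 2-fold the counts were 2, 0 and 2 (Dbp and Wee1). The 27 differences moved by at most 0.04 under centring and repeated quantile normalization, the scalings that changed any of them. Counts over all genes moved more: at 2-fold they were 51, 137 and 152, with no level filter 426, 503 and 584, and with a filter of 6 they were 104, 90 and 156, in the same order, against 233, 248 and 342. With 1 array for each group no array could be left out. No paired analysis was possible because each group holds 1 array. Signal over background limits Fabp7, Arntl, Angptl4, Ccnb1 and Zfp738, among others, which lie under 4.16 on at least 1 array.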
